A study of Rattus norvegicus with 18 samples.

Results

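The genes described here encode collagen chains, laminin chains and a small set of other structural matrix proteins, measured by RNA sequencing in the rat hippocampus. They were chosen by symbol: every gene named Col followed by a number, a and a number, every gene starting Lama, Lamb or Lamc with a digit, and Fn1, Lox, Loxl1, Loxl2, Tnc, Nid1, Nid2, Hspg2, Lum, Dcn, Postn and Tgfbi, applied to the symbols in the table used here and provided that 3 or more libraries had 10 or more counts. Of the 17455 symbols in the table, 47 met the rule, and all 47 were among the 13338 genes that passed the filter on low counts and were tested. The rule used no difference between groups. The members closest to its limit were Col17a1, with a third-highest count of 10, and Col6a4, with 11, while Col9a1 followed with 31. Some genes of the same families, among them Col4a2, Lama2, Lamb1, Nid1 and Hspg2, were not analysed here.

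The left hippocampus was taken from male Sprague-Dawley rats, adults of 170 to 280 g. In the 3 Class V groups this was 24 hours after the last seizure. The libraries fell into 4 groups from 2 models of acquired temporal lobe epilepsy. In the kainic acid model (KA), rats received implanted electrodes and then rising systemic doses of kainic acid, a glutamate receptor agonist, until status epilepticus; its groups were KA sham (n = 7) and KA 3 Class V (n = 3). In the kindling model (KI), rats with electrodes in the hippocampus were stimulated repeatedly until fully kindled; its groups were KI sham and KI 3 Class V, with n = 4 in each. The labels do not say what the shams underwent, and they explain the name "3 Class V" no further. Whole hippocampi were used, so each library mixes neurons, glia, vessels and any attached meninges or choroid plexus. The neuronal markers Prox1, of dentate granule cells, and Wfs1, of CA1 pyramidal cells, were present in every library, at 7.37 to 49.95 and 173 to 454 CPM, which are counts scaled to a library of fixed size. The labels do not state for each library that it came from its own animal, so the p-values measure the spread between these libraries, which may in part be technical.

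Basement membranes are thin sheets of matrix beneath endothelium, around pericytes and smooth muscle, and below the pia. A laminin network, built from trimers of 1 alpha, 1 beta and 1 gamma chain, binds cell receptors, and a collagen IV network is tied to it by nidogens and perlecan. Fibrillar collagens give tensile strength to the meninges and the outer wall of larger vessels and are sparse in brain parenchyma, where matrix is mostly proteoglycan and hyaluronan. Lysyl oxidases crosslink collagen and elastin, and fibronectin, tenascin C and periostin are glycoproteins that often accompany matrix remodelling.

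The promoters of 34 of the 47 genes were found in the RefSeq promoter table for the rat assembly GRCr8, and 4 are shown. Each window runs from 250 bases before the transcription start to 50 after it, 5′ to 3′ on the gene's strand. Postn is shown because it is 1 of the 2 members called in the kindling comparison, at chr2:140677811-140678110 on the plus strand. Col1a2, a chain of type I collagen, is shown as a fibrillar collagen for contrast, at chr4:33518307-33518606 on the plus strand. Capitals in these windows mark the TATA box core TATAAA and the CCAAT box, each searched on both strands.
Postn: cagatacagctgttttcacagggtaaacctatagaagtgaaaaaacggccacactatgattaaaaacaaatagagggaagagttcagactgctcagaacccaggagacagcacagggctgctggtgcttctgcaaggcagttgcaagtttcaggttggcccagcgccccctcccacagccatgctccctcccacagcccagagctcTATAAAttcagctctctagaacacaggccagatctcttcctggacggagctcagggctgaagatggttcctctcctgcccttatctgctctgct
Col1a2: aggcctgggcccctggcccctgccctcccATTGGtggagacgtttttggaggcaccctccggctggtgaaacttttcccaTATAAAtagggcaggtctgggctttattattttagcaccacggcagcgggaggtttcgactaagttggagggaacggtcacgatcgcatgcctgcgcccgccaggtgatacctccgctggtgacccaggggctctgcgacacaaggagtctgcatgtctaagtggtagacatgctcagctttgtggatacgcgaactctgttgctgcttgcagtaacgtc
Both windows hold the letters TATAAA, which in Col1a2 lie closer to the 5′ end of the window than to the transcription start. The Col1a2 window also holds a CCAAT box on the opposite strand. TATAAA occurred in 6 of the 34 member promoters (17.6%) and in 14.2% of all 33469 promoters in the table. The CCAAT box occurred in 9 (26.5%) against 37.5%. The GC box core GGGCGG, also on both strands, occurred in 17 against 33.1%. The motifs can overlap each other by their end bases. These are matches of letters on either strand and not evidence of a bound factor.

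Col4a3 and Col4a4 encode collagen IV chains of specialised basement membranes and lie head to head on the chromosome, with starts 413 bases apart. Their windows, chr9:91323740-91324039 on the plus strand and chr9:91323528-91323827 on the minus strand, share 88 bases, which are in capitals.
Col4a3: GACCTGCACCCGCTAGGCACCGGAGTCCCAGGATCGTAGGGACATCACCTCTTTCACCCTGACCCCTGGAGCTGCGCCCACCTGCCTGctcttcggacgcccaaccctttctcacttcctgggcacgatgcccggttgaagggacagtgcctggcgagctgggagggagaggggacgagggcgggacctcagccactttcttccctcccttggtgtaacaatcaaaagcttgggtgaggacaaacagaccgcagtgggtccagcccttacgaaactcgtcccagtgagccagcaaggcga
Col4a4: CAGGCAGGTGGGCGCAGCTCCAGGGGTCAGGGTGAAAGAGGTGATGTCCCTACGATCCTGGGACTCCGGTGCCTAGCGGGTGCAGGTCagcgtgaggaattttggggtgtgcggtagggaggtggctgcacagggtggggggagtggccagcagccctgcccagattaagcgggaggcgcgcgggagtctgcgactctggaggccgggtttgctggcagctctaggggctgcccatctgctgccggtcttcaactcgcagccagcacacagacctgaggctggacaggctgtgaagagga
The libraries ordered the pair alike at the ends of both sham groups. KA sham 3 was the highest and KA sham 2 the lowest for both genes, Col4a3 spanning 1.59 to 5.92 CPM and Col4a4 0.367 to 1.26 CPM in the KA shams. Among the KI shams, Col4a3 stood at 0.553, 2.26, 1.74 and 5.64 CPM and Col4a4 at 0.138, 0.606, 0.688 and 1.57 CPM, with KI sham 1 lowest and KI sham 4 highest for both. This order was not particular to the pair. Of the 47 members, KI sham 4 was highest for 40, KI sham 1 lowest for 29, KA sham 2 lowest for 22 and KA sham 3 highest for 12. In the seizure groups the lowest libraries differed. In KA 3 Class V, Col4a3 was lowest in library 3 (2.02 CPM) and Col4a4 in library 1 (0.763 CPM). In KI 3 Class V, Col4a3 was lowest in library 3 (2.79 CPM) and Col4a4 in library 1 (0.756 CPM). Neither gene was called in any comparison.

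Total counts ran from 30925368 to 49943021 per library, within 32150130 to 42619628 for KA sham, 37172455 to 49943021 for KA 3 Class V, 30925368 to 38850420 for KI sham and 36117956 to 41195373 for KI 3 Class V. One library stood apart for the matrix genes. KI sham 4 was the highest of the 4 KI shams for 40 of the 47 members, against 34.6% of all genes tested, and KI sham 1 was the lowest for 29, against 37.7% of all genes. In the KA shams, KA sham 2 was the lowest for 22 members and KA sham 7 for 13, against 29% and 14.2% of all genes. The ratio of the highest to the lowest library of a group had a median over members of 2.92 in KA sham, 1.40 in KA 3 Class V, 3.58 in KI sham and 1.62 in KI 3 Class V. Over all genes these medians were 1.70, 1.22, 1.74 and 1.22, so in each group the matrix genes varied more between libraries than the typical gene. Kindling values are given with all 4 shams, and those that KI sham 4 moved most also without it. Values without KI sham 1, at the other end, are not set beside them, so the shift shown is to 1 side. On leaving out each library in turn, the member median log2 change in kindling ran from -0.24 to 0.39. The upper end was the fit without KI sham 4.

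A pair of kindled libraries was nearly alike. For genes with at least 100 reads in a pair, the squared difference of KI 3 Class V 1 and 3 had a median of 2.15 times what counting error gives, where the other 35 pairs within groups had 6.52 to 153 times. Their deposited counts did differ beyond counting error, 90.4% of the summed chi-square lying in 5 rows, so they were kept as 2 of the 4 libraries. The labels do not say whether they came from separate animals. With these libraries summed as 1, a choice made after seeing the data, 0 members and 0.0525% of all genes were called in kindling, against 9.99% with all 4. Every edgeR call of a member, list gene or marker in kindling with all 4 shams therefore rests on counting this pair as 2 replicates, and the p-values are too small if they share an animal.

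**Figure D1:**
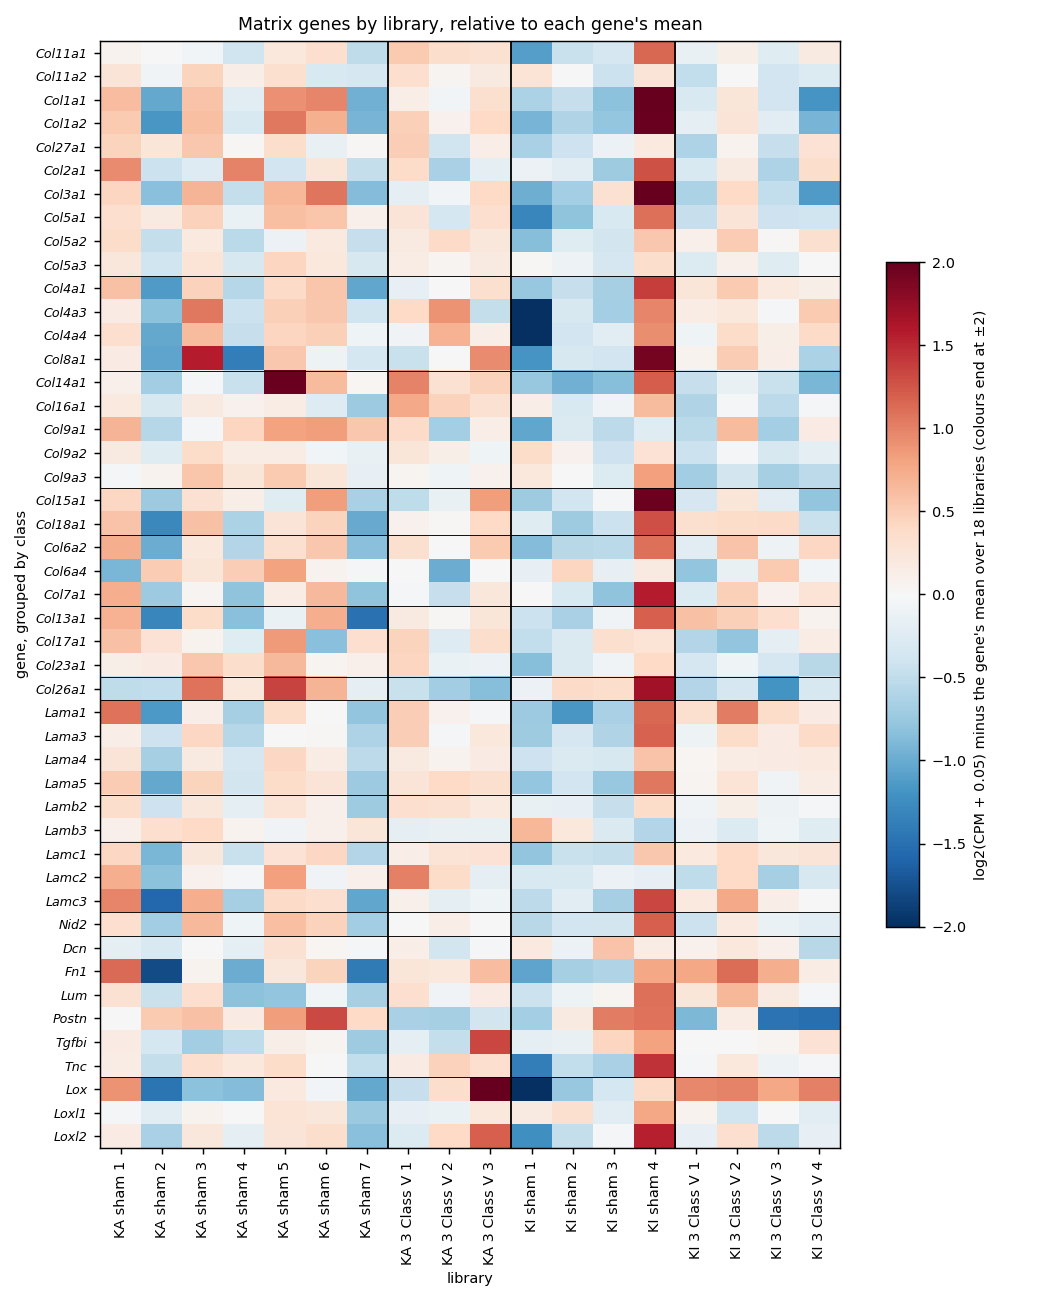
Level of each of the 47 matrix genes (rows, grouped by class) in each of the 18 libraries (columns), as log2 of CPM plus 0.05 minus the gene's mean; red is above the mean and blue below, and colours end at 2 in either direction. The column of KI sham 4 is red for most genes, those of KA sham 2, KA sham 7 and KI sham 1 are mostly blue, and the Postn row is blue in 6 of the 7 seizure libraries.

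In the kindling model, 2 of the 47 genes changed with the alike pair counted as 2 libraries, and both fell: Col9a3, which encodes a chain of collagen IX, a collagen of fibril surfaces, and Postn, which encodes periostin, an adhesive protein that binds collagen and aids its crosslinking. No member rose by edgeR. DESeq2 called 3 members where it called 21.2% of all genes, and limma-voom with quality weights called 10, 7 higher and 3 lower, where it called 55.2%; neither was run with the alike pair summed. Of all genes tested, 9.99% were called by edgeR at an adjusted p under 0.05, 4.74% higher and 5.25% lower. Over members, 18 had a positive and 29 a negative log2 change, with a median of -0.16 against -0.04 over all genes, of which 46.8% were positive. At an unadjusted p under 0.05 there were 3 members, all lower, against 35.4% of all genes.

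Col9a3 was measured at 29.7, 25.6, 21.4 and 45.4 CPM in the KI shams and at 15.9, 19.9, 16.2 and 17.9 CPM in KI 3 Class V. The groups did not overlap: all 4 shams were above all 4 seizure libraries, and KI sham 4 was the highest. Its log2 change was -0.80 ± 0.20 (SE; edgeR adjusted p = 0.0318), and without KI sham 4 it was -0.57 (edgeR adjusted p = 0.017). The call was lost without KI 3 Class V 1, 2 or 3, with edgeR adjusted p of 0.104, 0.0568 and 0.0862, and with KI 3 Class V 1 and 3 summed (log2 change -0.76, edgeR adjusted p = 0.0961). Of the other collagen IX chains, Col9a2 had a log2 change of -0.35 ± 0.17 (edgeR adjusted p = 0.144), with shams at 13.2, 10.8, 7.64 and 12.5 CPM and seizure libraries at 7.59, 9.89, 8.14 and 8.91 CPM. Those groups overlapped through KI sham 3. In whole tissue, fewer cells of a type and less RNA per cell cannot be told apart.

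Postn was measured at 0.968, 1.79, 3.27 and 3.40 CPM in the KI shams and at 0.819, 1.75, 0.535 and 0.520 CPM in KI 3 Class V. The groups overlapped, since KI 3 Class V 2 lay above KI sham 1. The log2 change was -1.38 ± 0.42 (SE; edgeR adjusted p = 0.0468). Reads were few, from 19 to 145 per library in this model. The call stood close to the threshold: it was lost on leaving out KA sham 3, 5 or 7, any of the 3 KA 3 Class V libraries, KI sham 2 or 3, or any of the 4 KI 3 Class V libraries, with an edgeR adjusted p of up to 0.124, and the log2 change then lay between -1.94 and -1.18. Without KI sham 3 and 4 together it was -0.62 (edgeR adjusted p = 0.308), and with KI 3 Class V 1 and 3 summed it was -1.28 (edgeR adjusted p = 0.12). It was called in 11 of 27 other fits and settings, not counting the summed pair. Both calls were also lost when the 2 kindling groups were fitted alone, with edgeR adjusted p of 0.0586 for Col9a3 and 0.108 for Postn, where 5.85% of all genes were called.

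Col26a1, which encodes a short collagen outside the main families, had values of the same sign. The KI shams stood at 0.415, 0.606, 0.590 and 1.57 CPM and the seizure libraries at 0.283, 0.351, 0.169 and 0.354 CPM, with no overlap. Its log2 change was -1.46 ± 0.50 (edgeR adjusted p = 0.0612). That p crossed the threshold without KA sham 1 (0.0493) or KA sham 2 (0.0453), and DESeq2 also called the gene. Without KI sham 4 the log2 change was -0.91 (edgeR adjusted p = 0.137). Counts were low, between 6 and 67 reads per library.

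The 10 fibrillar collagens, which form the ropes of interstitial matrix, included 8 with negative kindling values, and their class median was -0.26. These values rested on KI sham 4. Col3a1 was at 9.93, 12.2, 24.1 and 104 CPM in the KI shams and 12.6, 25.7, 13.9 and 8.91 CPM in KI 3 Class V. Without KI sham 4 its log2 change went from -1.30 ± 0.62 (edgeR adjusted p = 0.142) to -0.05. Col1a2 likewise stood at 31.2, 39.2, 34.9 and 234 CPM in the shams against 51.9, 71.8, 51.4 and 31.2 CPM, so 3 of the 4 shams lay within or below the seizure range. Without that library 8 of the 10 fibrillar values were positive and the class median was 0.29.

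Leaving KI sham 4 out of the whole fit gave another picture of the kindling model. That library was picked because it was the highest KI sham for 40 of these 47 members. Leaving it out was therefore bound to raise most member values, while all genes had no such choice. The counts and p-values of this fit are thus no separate support for a rise. Without KI sham 4, positive values numbered 34 of 47, against 45.9% of all genes, 16 members turned sign, and the member median was 0.39 against -0.06 over all genes. Of the members, 8 were called where 32.3% of all genes were. The 6 called higher were the following, and those other than Fn1 and Lamc1 were chosen after their values were seen. Fn1, fibronectin, had a log2 change of 1.46 (edgeR adjusted p = 0.0429). Lama1, Lama3 and Lamc1, laminin chains, had log2 changes of 1.33, 0.75 and 0.81 (edgeR adjusted p = 0.0285, 0.0313 and 0.0287). Tnc, tenascin C, had 0.78 and Col5a2, a chain of the fibril-regulating collagen V, had 0.68 (edgeR adjusted p = 0.0207 and 0.0276). The 2 called lower were again Col9a3 and Postn, the latter at -1.19 (edgeR adjusted p = 0.0473). Without KI sham 3 as well, 9 members were called where 28% of all genes were, and without KA sham 3 and KI sham 4, 6 where 29.6% were. With KI sham 4 left out and KI 3 Class V 1 and 3 summed, 5 members were called where 17.2% of all genes were: Tnc, Col5a2, Lama3 and Lama1 higher and Col9a3 lower, with edgeR adjusted p of 0.0423 or more, that of Lama1 lying at the threshold. Fn1, Lamc1 and Postn were not called in that fit.

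**Figure D2:**
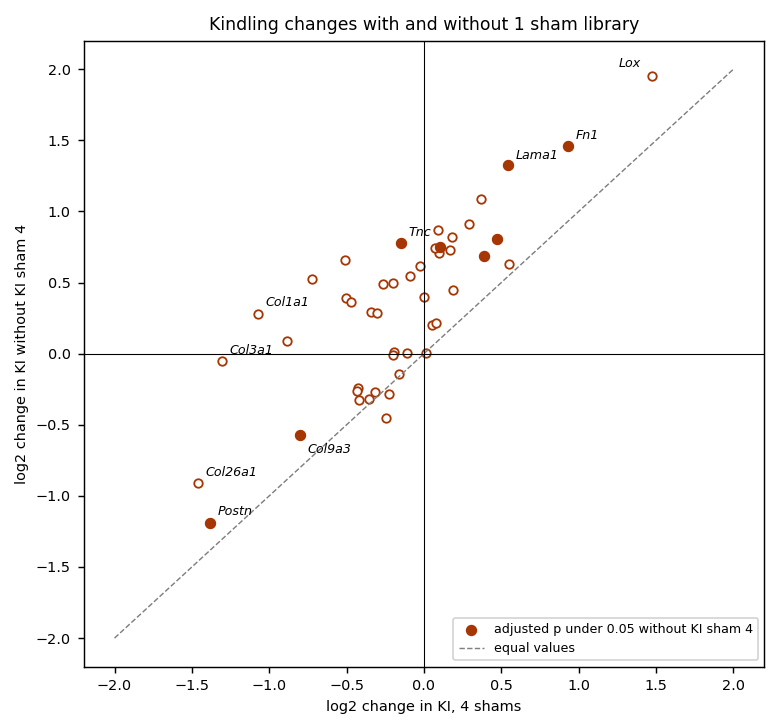
Log2 change of each of the 47 genes in kindling, KI 3 Class V against KI sham, with all 4 shams (horizontal axis) and without KI sham 4 (vertical axis); 1 point per gene, filled where the edgeR adjusted p is under 0.05 without that library, and the dashed line marks equal values. Most points lie above the line, Col3a1 moves from -1.30 to -0.05, and Postn and Col9a3 stay below 0 on both axes. KI sham 4 was picked as the highest KI sham for most of these genes, so an upward shift was built in.

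Among the basement membrane genes, several values also moved with that library. Fn1, which joins basement membranes and interstitial matrix, was at 16.6, 21.8, 22.8 and 58.8 CPM in the KI shams and at 58.6, 75.2, 57.3 and 38.2 CPM in KI 3 Class V. Lamc1, the gamma chain of most laminins, was at 28.2, 35.5, 34.9 and 70.6 CPM against 55.7, 64.2, 57.0 and 57.9 CPM. For both, 3 shams lay below every seizure library and KI sham 4 lay inside or above the seizure range. With all 4 shams the log2 changes were 0.93 ± 0.52 for Fn1 (edgeR adjusted p = 0.197) and 0.47 ± 0.29 for Lamc1, and neither was called.

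Col4a1, a chain of the collagen IV found in every basement membrane, followed the same order, at 34, 42.1, 36.5 and 150 CPM in the KI shams and 68.5, 82.7, 66.4 and 63.0 CPM in KI 3 Class V. The log2 change was 0.09 ± 0.45 with all 4 shams and 0.87 without KI sham 4 (edgeR adjusted p = 0.0716). The 4 network collagens had a median of 0.19 with KI sham 4 and 0.89 without it. All 4 laminin alpha and all 3 gamma chains had positive values both with and without the library, with medians of 0.14 and 0.07 with it and 0.73 and 0.74 without it. The beta chains Lamb2 and Lamb3 had values of opposite sign, 0.05 ± 0.20 and -0.25 ± 0.22, and neither was called. Nid2, a nidogen, stood at 3.84, 4.34, 4.37 and 13.1 CPM in the shams and 4.19, 6.54, 5.18 and 4.89 CPM in the seizure group, a log2 change of -0.30 ± 0.37 that turned to 0.28 without KI sham 4.

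**Figure D3:**
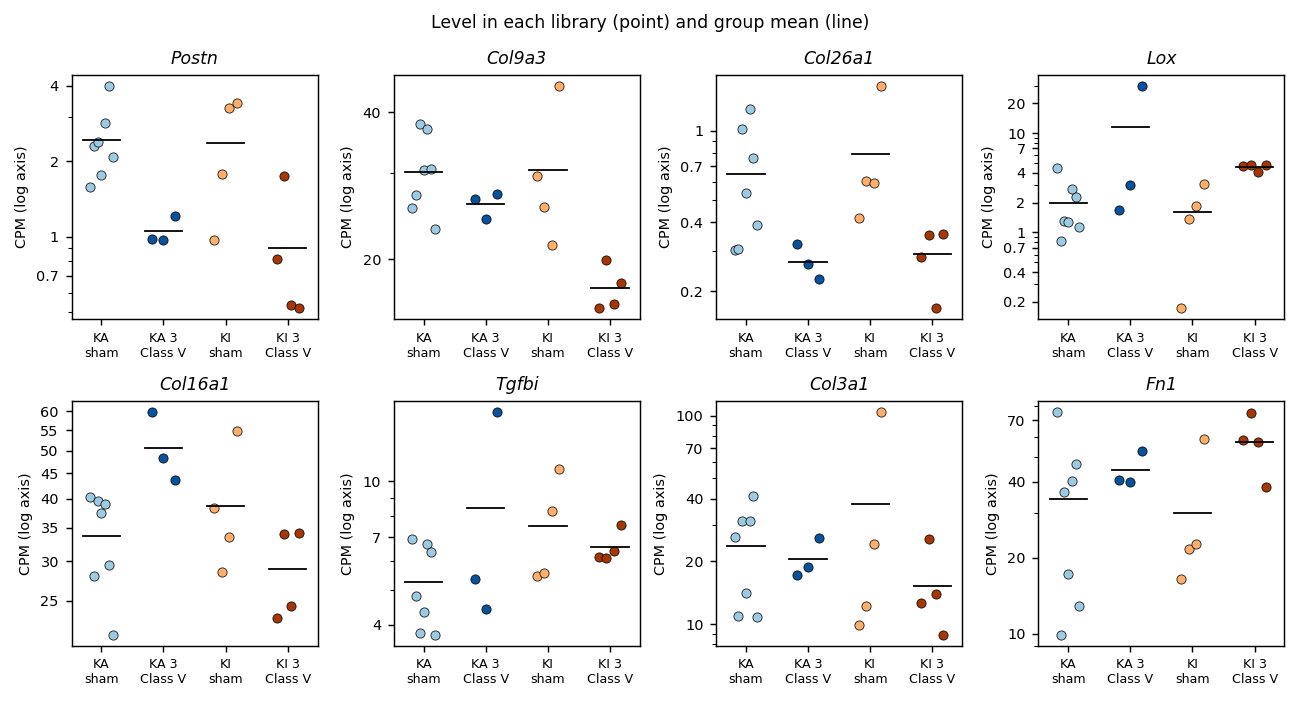
CPM of 8 matrix genes in every library (points, log axis, a scale of its own for each gene) with the mean of each group as a line. Col9a3 in KI 3 Class V lies below every KI sham, Postn in KA 3 Class V lies below every KA sham, and single libraries set the highest points of Lox and Tgfbi in KA 3 Class V and of Col3a1 in KI sham.

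In the kainic acid model, 0 of the 47 genes were called by edgeR, in a comparison where 0.172% of all genes were called, all of them higher. At an unadjusted p under 0.05 there were 5 members, 3 higher and 2 lower, against 9.93% of all genes. DESeq2 also called 0 members, where it called 1.85% of all genes, and limma-voom with quality weights called 2, Postn and Col26a1, both lower, where it called 5.44% of all genes. Positive values numbered 30 and negative values 17, with a median of 0.09 against -0.01 over all genes, of which 48% were positive.

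Postn in the KA shams ran from 1.57 through a median of 2.29 to 4.0 CPM, and the 3 KA 3 Class V libraries stood at 0.984, 0.972 and 1.21 CPM. All 3 lay below all 7 shams. The log2 change was -1.2 ± 0.42 (edgeR adjusted p = 0.269). Lamb3, a beta chain of epithelial laminin, also had no overlap, with shams at 1.72 to 2.42 CPM and the seizure libraries at 1.60, 1.63 and 1.64 CPM, and its log2 change of -0.34 ± 0.22 had an edgeR adjusted p of 0.629. Members whose seizure libraries all lay below the shams were these 2, against 2.7% of all genes.

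Col16a1, a collagen of fibril surfaces that binds other matrix proteins, was the 1 member with all seizure libraries above all shams, against 2.95% of all genes. The shams ran from 21.4 through a median of 37.5 to 40.4 CPM and the seizure libraries stood at 59.8, 48.4 and 43.6 CPM. The log2 change was 0.59 ± 0.21 (edgeR adjusted p = 0.281). Col26a1 had shams at 0.304 to 1.24 CPM with a median of 0.533, and seizure libraries at 0.320, 0.262 and 0.227 CPM. Those groups overlapped, since the first of these lay above the 2 lowest shams, and the log2 change was -1.28 ± 0.50 (edgeR adjusted p = 0.362).

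Lox, lysyl oxidase, had the smallest p of the members in this model, and it rested on 1 library. The KA shams ran from 0.826 through a median of 1.31 to 4.45 CPM, and KA 3 Class V stood at 1.70, 3.03 and 30.0 CPM. Only the third of these was above every sham. The log2 change was 2.53 ± 0.68 (edgeR adjusted p = 0.135) and 0.24 without KA 3 Class V 3 (edgeR adjusted p = 0.985). Tgfbi, an adhesive protein induced by TGF-beta, was also high in that library, with values of 5.36, 4.43 and 15.6 CPM against shams of 3.75 to 6.93 CPM, and its log2 change went from 0.69 ± 0.32 (edgeR adjusted p = 0.49) to -0.11 without it. Leaving out that library turned the sign of 5 members and left a member median of 0.03.

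Lox in the kindling model had tighter seizure values. The KI shams stood at 0.173, 1.37, 1.84 and 3.09 CPM, KI sham 1 holding 5 reads, and KI 3 Class V at 4.63, 4.76, 4.08 and 4.80 CPM. The seizure libraries all lay above the shams, as they did for 12.1% of all genes, and Lox was the 1 member with this order. The log2 change was 1.47 ± 0.77 (edgeR adjusted p = 0.175), and 1.95 without KI sham 4 (edgeR adjusted p = 0.0895). In the other direction, Col9a3 and Col26a1 had all seizure libraries below all shams, against 8.07% of all genes. Of the related enzymes, Loxl1 had a kindling log2 change of -0.43 ± 0.21 (edgeR adjusted p = 0.153) and Loxl2 of -0.47 ± 0.48, which turned to 0.36 without KI sham 4.

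The basement membrane classes in the kainic acid model held small values. All 4 laminin alpha chains were positive with a median of 0.23, all 4 network collagens were positive with a median of 0.10, and the 10 fibrillar collagens divided 5 to 5 with a median of -0.02. Lamb2, a laminin beta chain, ran from 43.5 through 76.6 to 91.7 CPM in the shams and stood at 90.6, 88.6 and 82.0 CPM in the seizure group. The seizure values lay within the upper sham range, and the change was 0.29 ± 0.20 on the log2 scale (edgeR adjusted p = 0.654). Fn1 in the KA shams ran from 9.94 through 36.3 to 75.5 CPM, and the seizure libraries at 40.6, 40.05 and 52.8 CPM lay inside that range.

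**Figure D4:**
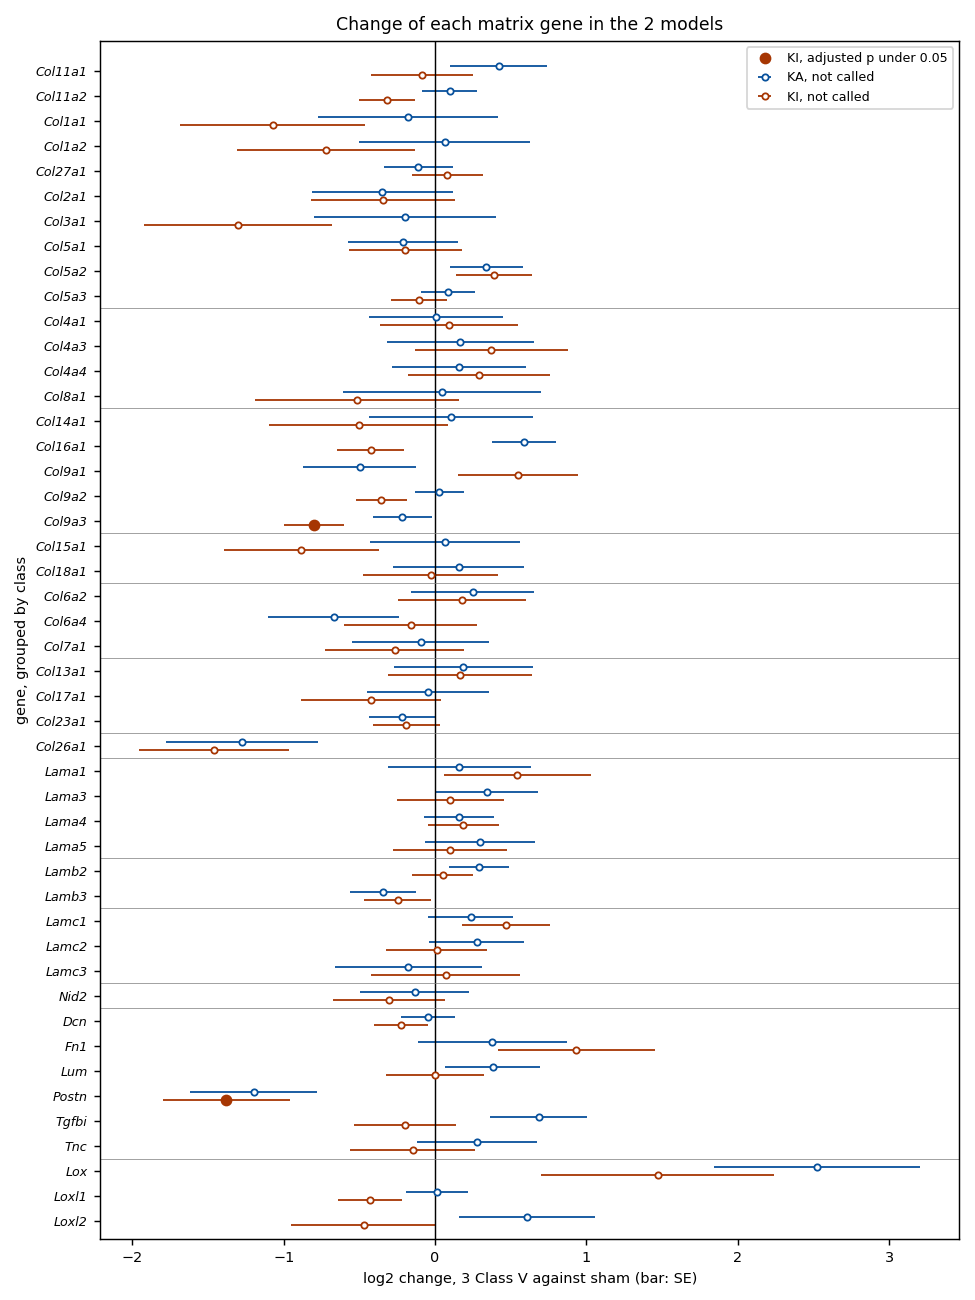
Log2 change of each gene in KA (blue) and KI (red), 3 Class V against sham, with the SE as a bar; filled points are called by edgeR. Only Col9a3 and Postn in KI are filled, Col26a1 and Postn are below 0 in both models, and most bars cross 0.

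Each model has its own shams, so the difference between the models' changes was tested directly. For the members, 0 were called by edgeR where 3.8% of all genes were, 3.15% with the KA change above and 0.652% with it below. Of the members, 2 had an unadjusted p under 0.05 where 20.5% of all genes did, DESeq2 called 1 and limma-voom called 3 (8.09% and 35.8% of all genes). The gene DESeq2 called was Col16a1, with a KA change minus KI change of 1.01 ± 0.31 on the log2 scale (edgeR adjusted p = 0.0749). In kindling its shams stood at 38.4, 28.5, 33.6 and 54.7 CPM and its seizure libraries at 23.1, 34.1, 24.4 and 34.1 CPM, so its kindling log2 change was -0.42 where the kainic acid value was 0.59. Col9a3 had a difference of 0.59 ± 0.27 (edgeR adjusted p = 0.237), so its fall in kindling was not shown to differ from its kainic acid value of -0.22 ± 0.19. The member median of the difference was 0.18, and -0.35 without KI sham 4.

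The shams of the models were also compared, and 0 members were called where 0.0075% of all genes were. By DESeq2 0 and by limma-voom 2 were called (0.0642% and 3.08% of all genes), and 2 had an unadjusted p under 0.05 against 8.63% of all genes. The smallest p belonged to Col9a1, a collagen IX chain with 6 to 38 reads per sham library, at a log2 difference of 1.03 ± 0.36 with KA higher (edgeR adjusted p = 0.564). For 0 members did the sham groups lie apart, against 0.48% of genes with KA higher and 0.18% with KA lower. The 2 genes limma-voom called were Col5a1 and Col23a1, both higher in KA sham, and Col5a1 was chosen after its values were seen. The same 2 genes were called by edgeR without KI sham 3 and 4, where 4.67% of all genes were.

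Between the seizure groups, 0 members were called by edgeR where 2.82% of all genes were, 2.47% higher in KA and 0.352% lower. Of the members, 3 had an unadjusted p under 0.05 against 17.8% of all genes. DESeq2 called 1 and limma-voom 9 (6.87% and 38.5% of all genes), and a fit of these 2 groups alone called 6 where it called 24.9% of all genes. Levels were higher in all 3 KA than in all 4 KI libraries for 6 members, Col11a1, Col11a2, Col14a1, Col16a1, Col9a3 and Lamb2, against 16.5% of all genes, and lower for 0, against 17.9%. Col11a1 was chosen after its values were seen. Col16a1 again had the smallest p, with a log2 difference of 0.81 ± 0.24 (edgeR adjusted p = 0.0734), which crossed the threshold without KI sham 4 (0.0458; 3.56% of all genes called). Without KI sham 3 as well, Col16a1 and Col9a3 were called where 4.9% of all genes were. The KI shams are not in this comparison, so leaving them out acts only through the fit that all groups share. These calls are thus no separate support for the 2 genes. With KI 3 Class V 1 and 3 summed, 0.135% of all genes were called between the seizure groups, so this comparison too leans on counting that pair as 2 replicates. Col9a3 stood at 26.6, 24.2 and 27.2 CPM in KA 3 Class V against at most 19.9 CPM in KI 3 Class V, a log2 difference of 0.57 ± 0.21 (edgeR adjusted p = 0.159). Col11a2, a chain of the fibrillar collagen XI, stood at 173, 143 and 155 CPM against 98.1, 138, 106 and 114 CPM, a log2 difference of 0.46 (edgeR adjusted p = 0.232).

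The proteins that make, bind and regulate matrix were taken from 4 further lists. None of their genes was called in the kainic acid comparison. The kindling counts stand against 4.74% of all genes called higher and 5.25% lower, and none of the list calls in kindling held with KI 3 Class V 1 and 3 summed (edgeR adjusted p of 0.0832 to 0.123). In kindling, the 22 tested collagen processing enzymes and chaperones held 0 called higher and 1 lower, the procollagen C-proteinase Bmp1, at 36.9 ± 4.46 CPM (SD, n = 4) in shams and 28.4 ± 1.58 CPM (SD, n = 4) in KI 3 Class V (log2 change -0.38, edgeR adjusted p = 0.0358). Of these 22, 15 were negative in kindling with a median of -0.30, and 16 were positive in the kainic acid model with a median of 0.23. Of the 23 matrix receptors, 0 were called in either model, with 12 positive in kindling and 20 in KA. Of the 25 other matrix proteins, 1 was called in kindling, Mgp, matrix Gla protein, an inhibitor of calcification. Mgp fell from 21.8 ± 4.50 to 10.3 ± 1.08 CPM (SD, n = 4 each; log2 change -1.08, edgeR adjusted p = 0.0221).

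The TGF-beta list holds ligands, receptors and targets of the pathway that drives collagen synthesis in many tissues. Among its 14 tested genes, 1 rose and 1 fell in kindling, where 4.74% of all genes were called higher and 5.25% lower. Tgfb1 stood at 26.1, 31.6, 36.0 and 43.2 CPM in the KI shams and at 17.5, 15.3, 15.3 and 15.7 CPM in KI 3 Class V, with no overlap, and fell by 1.10 on the log2 scale (edgeR adjusted p = 0.039). Tgfb2 had means of 16 ± 0.59 and 20.5 ± 1.88 CPM (SD, n = 4 each) and rose by 0.36 on the log2 scale (edgeR adjusted p = 0.0487). In the kainic acid model all 14 values were positive with a median of 0.30, and 0 were called. Tgfb1 there had 24.7 ± 12.1 CPM in shams (SD, n = 7) and 49.3 ± 11.3 CPM in the seizure group (SD, n = 3), for which the log2 change was 1.0 (edgeR adjusted p = 0.157). The kindling calls of Bmp1, Mgp, Tgfb1 and Tgfb2 were each lost without KI 3 Class V 1, 2 or 3; Bmp1, Tgfb1 and Tgfb2 also lost theirs without KI sham 2 or 3, Tgfb1 and Tgfb2 without KI 3 Class V 4, and Tgfb2 without KI sham 1, KA sham 1, 3, 4, 5 or 6 or any KA 3 Class V library.

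The difference between the models' changes passed the test for 7 list genes, all with the KA change above the KI change, where 3.8% of all genes were called. These genes were chosen after their values were seen, apart from their place on the lists. Tgfb1 had a difference of 2.10 ± 0.42 on the log2 scale (edgeR adjusted p = 0.0154), and the call was lost without KA 3 Class V 3 (0.0518). In the same comparison all 9 microglia and macrophage markers were positive, with a median of 1.03, and 3 were called. Their part in the Tgfb1 value was not tested. Mgp had 1.65 ± 0.28 (edgeR adjusted p = 0.0114), and its call held without each of the libraries in turn. With KI 3 Class V 1 and 3 summed, Tgfb1 and Mgp kept this call (edgeR adjusted p = 0.0428 and 0.0407) and the other 5 lost theirs (0.0547 to 0.0826), where 0.99% of all genes were called. The collagen chaperone Fkbp10 and the lysyl hydroxylase Plod3 had 0.88 and 0.79, and the receptors Itgb5, Sdc4 and Sdc1 had 0.74, 0.94 and 4.37, with edgeR adjusted p of 0.0205 to 0.0356. These 5 calls were each lost without KA 3 Class V 3 and without KI 3 Class V 1 or 3, and Sdc1, at 53.3 CPM in KA 3 Class V 3 against 1.75 and 3.44 CPM in the other two, had 1.48 without it (edgeR adjusted p = 0.391).

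Markers of other cell types moved with several of these results, and their part in them was not tested. The 14 meningeal and perivascular fibroblast markers summed to 318 CPM in KI sham 4 against 91.9 to 99.0 CPM in the other KI shams, 65.7 to 87.4 CPM in KI 3 Class V, 86.6 to 193 CPM in KA sham and 79.5 to 148 CPM in KA 3 Class V. Igf2 alone stood at 188 CPM in KI sham 4, 39.1 to 41.7 CPM in the other KI shams and 12.9 to 20.2 CPM in KI 3 Class V. In kindling 2 of them fell, Igf2 and Slc22a6 (log2 changes of -2.27 and -1.98, edgeR adjusted p = 0.0297 and 0.0487). Without KI sham 4 these were -1.37 and -1.03 (edgeR adjusted p = 0.0251 and 0.126). The 11 pericyte and smooth muscle markers summed to 306 CPM in KI sham 4, 136 to 185 CPM in the other KI shams, 181 to 256 CPM in KI 3 Class V, 168 to 271 CPM in KA sham and 200 to 253 CPM in KA 3 Class V. The 10 choroid plexus markers summed to 1033 CPM in KI sham 4, to 644 CPM in KA sham 3 and between 15.9 and 79.0 CPM in the other 16 libraries. In kindling 1 of them, Prlr, was called lower (log2 change -3.56, edgeR adjusted p = 0.0424). Prlr was at 2.15 CPM in KI sham 4, at 0.0737 to 0.191 CPM in the other KI shams and at 0.025 to 0.0709 CPM in KI 3 Class V, and it did not pass the filter without KI sham 4.

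The mean level of the 47 genes, as log2 CPM centred on each gene, was 0.93 in KI sham 4 and -0.64, -0.32 and -0.30 in KI sham 1, 2 and 3. Group means were 0.01 ± 0.43 in KA sham, 0.14 ± 0.15 in KA 3 Class V, -0.08 ± 0.69 in KI sham and -0.04 ± 0.19 in KI 3 Class V (SD, n = 7, 3, 4 and 4). KI sham 4 was thus the highest library both for the matrix genes and for each of these 3 marker sums. KA sham 3, high in choroid plexus markers, had a matrix level of 0.32, below that of KA sham 5 at 0.40.

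**Figure D5:**
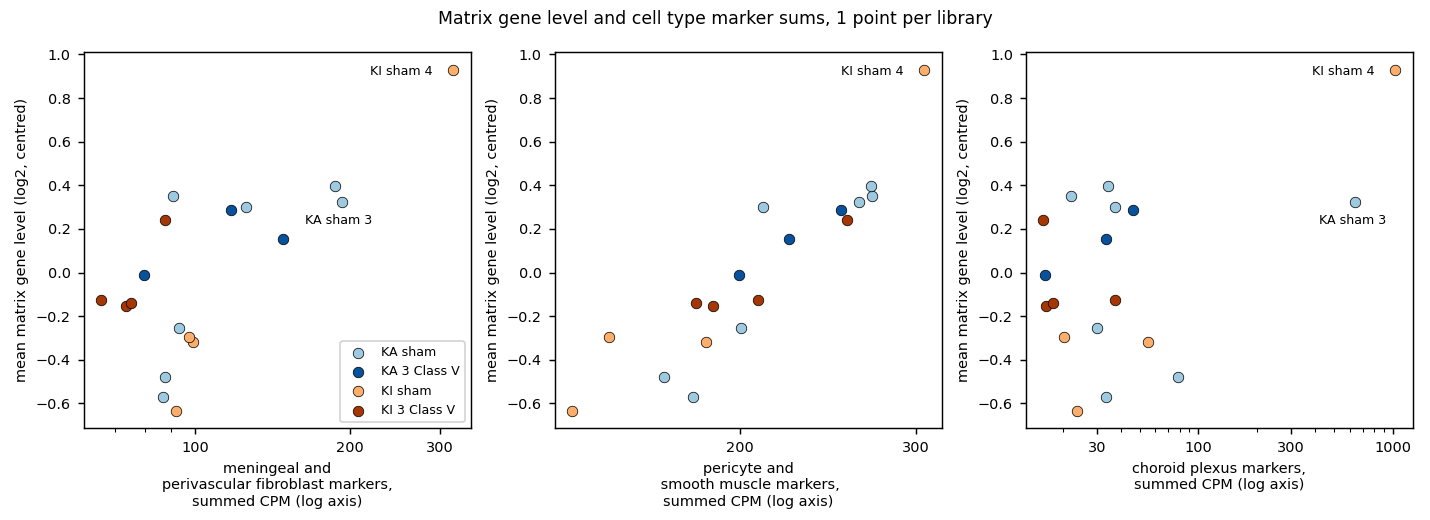
Mean centred log2 level of the 47 matrix genes (vertical axis) against the summed CPM of meningeal and perivascular fibroblast, pericyte and smooth muscle, and choroid plexus markers (horizontal log axes), 1 point per library, coloured by group. KI sham 4 is at the upper right of each panel, with a matrix level of 0.93 and sums of 318, 306 and 1033 CPM.

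Glial markers differed between the groups as well. The 9 microglia and macrophage markers summed to 291 to 673 CPM in KI sham, 280 to 296 CPM in KI 3 Class V, 270 to 620 CPM in KA sham and 579 to 835 CPM in KA 3 Class V, and 2 of them, Tmem119 and Aif1, fell in kindling. The 5 oligodendrocyte markers summed to 14698 to 19798 CPM in KI sham and 9092 to 12769 CPM in KI 3 Class V, with 1, Cnp, lower in kindling, and to 11428 to 32925 CPM in KA sham and 12581 to 12941 CPM in KA 3 Class V. The 8 astrocyte markers summed to 12782 to 14712 CPM in KA 3 Class V and 5948 to 12121 CPM in KA sham, where Gfap rose, and to 6254 to 10035 CPM in KI sham and 7526 to 9125 CPM in KI 3 Class V, where Aqp4 rose. Gfap alone stood at 7391 to 9278 CPM in KA 3 Class V and at 2264 to 5535 CPM in KA sham. The list did not move as 1. In KA, 5 of its markers were positive and 3 negative, with a median log2 change of 0.11. In kindling, 4 were positive and 4 negative, with a median of 0.03. The 9 endothelial markers summed to 341 to 433 CPM in KI sham and 336 to 390 CPM in KI 3 Class V, with 1, Cldn5, lower. Of these 9, 4 were positive and 5 negative in kindling. The 7 neuron markers summed to 3234 to 3782 CPM in KI sham and 4487 to 5812 CPM in KI 3 Class V, and to 2787 to 5289 CPM in KA sham and 3433 to 3551 CPM in KA 3 Class V. All 7 had positive kindling values, with a median log2 change of 0.56, and 2 rose, Syt1 by 1.21 and Slc17a7 by 0.65 (edgeR adjusted p = 0.045 and 0.0495). With KI 3 Class V 1 and 3 summed, the kindling calls of all 10 markers called were lost (edgeR adjusted p of 0.0913 to 0.127). The falls of Col9a3 and Postn in kindling lay beside lower microglial, oligodendrocyte and fibroblast marker sums and a higher neuron marker sum, whose part was not tested. Igf2 made up much of that fibroblast difference, and the sum without Igf2 was not compared. No marker of these lists was at 0 in all 18 libraries, but the blood cell marker Hba1 was above 0 only in KI 3 Class V 2, at 0.025 CPM.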

How the data were processed

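RNA from hippocampal tissue was sequenced in 18 libraries, made per the labels with a NEBNext Ultra II kit from polyadenylated RNA and read from one end over 110 bases. What the authors deposited is a table of raw counts, 1 row per gene symbol and 1 column per library, without normalization. The submitters' processing notes name the tools FastQC, Trimmomatic, HISAT2, featureCounts, DESeq2 and the build rn6, with no versions. How strand, annotation and multiply mapped reads were handled is not given in the sources used here, so counts of similar or overlapping genes are less certain.

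Columns were matched to samples by library name, with 0 unmatched. The 36 library pairs within groups were compared by the median chi-square per gene over counting error, since a few abundant rows carried the mean. All differed beyond it, KI 3 Class V 1 and 3 least (2.15 times), so none was merged in the main result, which does not show separate animals. Summing that pair was an alternative chosen after seeing the data. In R 4.3.3, edgeR 4.0.16 fitted all 18 libraries in 1 model of 4 group means (TMM factors, filterByExpr, robust quasi-likelihood F test, two-sided, 14 residual degrees of freedom, Benjamini-Hochberg over 13338 genes, threshold 0.05). Each SE was taken as the size of the log2 change over the root of its F. CPM uses TMM-scaled library sizes, and the mean matrix level used log2 CPM with a prior count of 2. The script was tested on simulated data. DESeq2 1.42.0, limma 3.58.1 (voom with quality weights), other factors and filters and left-out libraries were alternatives. Levels were not compared between genes, since lengths were not used.

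The members and lists were chosen with earlier results of these data known. Named genes are members called in a comparison, the 6 with the smallest p in each, the 2 with the highest mean CPM per class, and the 3 list genes with the smallest p per list in KA and KI. RefSeq sequences come from GRCr8, not the build of the counts, and were matched by symbol.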

Additional observations from a re-analysis of the deposited data

Results flagged for a closer look

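In 22 of the 129 sets of libraries examined (1 gene or marker sum in 1 group of 4 to 10 libraries; 17.1%), the highest or lowest library was farther from the rest than Dixon's 95% limit allows. For values that follow a normal curve, chance gives about 1 in 20. CPM was used here without logs, and some of the genes were picked by small p. That rate is therefore only a rough guide. The sets are not independent, since they share libraries.

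KI sham 4 accounted for 15 of them, always as the highest of the 4 KI shams. The interstitial and fibril genes were Col1a2 at 234 CPM (others 31.2 to 39.2), Col3a1 at 104 CPM (others 9.93 to 24.1), Col14a1 at 2.32 CPM, Col6a2 at 38.8 CPM, Col26a1 at 1.57 CPM and Fn1 at 58.8 CPM. The basement membrane genes were Col4a1 at 150 CPM (others 34 to 42.1), Col15a1 at 18.5 CPM, Col18a1 at 39.1 CPM, Lama4 at 25.2 CPM, Lama5 at 19.8 CPM, Lamc3 at 24.0 CPM and Nid2 at 13.1 CPM. The summed meningeal and perivascular fibroblast markers, at 318 CPM, and the choroid plexus markers, at 1033 CPM, stood apart in the same library.

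Outside that library, Col14a1 was at 4.0 CPM in KA sham 5 against 0.581 to 1.54 CPM in the other KA shams. Col18a1 was the lowest in KI 3 Class V 4, at 11.7 CPM against 19.8 to 20.7 CPM. Marker sums stood apart in KI 3 Class V 4 for choroid plexus (37.3 CPM), astrocytes (9125 CPM) and blood cells (553 CPM), in KA sham 3 for choroid plexus (644 CPM) and in KA sham 2 for blood cells (4121 CPM). By edgeR, 0 members differed between the models in their change.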

How the results depend on the processing

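For the 30 single-gene values of members, 792 alternative values gave 742 with the same sign and side of the threshold, 21 that lost a call, 25 that gained one and 4 of opposite sign: Tgfbi in KA without KA 3 Class V 3 (-0.11; the other left-out libraries gave up to 0.998), and, without KI sham 3 and 4, Col3a1 in kindling (0.44), Loxl2 in the difference of the models' changes (-0.10) and Lum between the shams (0.0082). All 21 lost calls were of Col9a3 and Postn in kindling, the only 2 of these values called in the main fit. Col9a3 was called in 22 of 27 alternatives and Postn in 11 of 27. The other values had no call to lose, so most of the 742 say little about how firm a call was. For the 20 calls of list genes, alternatives chosen after seeing the data kept 360 of 544 calls and turned 0 signs.

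Members called in kindling numbered 0 with KI 3 Class V 1 and 3 summed (chosen after seeing the data), 10 by limma-voom, 0 with only the compared groups, 9 without KI sham 3 and 4, 6 without KA sham 3 and KI sham 4, and 0 to 8 on leaving out 1 library. Limma-voom called 2 members in KA, 3 for the difference, 2 between the shams and 9 between the seizure groups. DESeq2 called 1 for the difference and 1 between the seizure groups, where the fit of the compared groups alone called 6, the fit without KI sham 3 and 4 called 2, and leaving out 1 library gave 0 to 1. Between the shams, the fit without KI sham 3 and 4 called 2.

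The member median in kindling was 0.44 without KI sham 3 and 4, 0.39 without KA sham 3 and KI sham 4, and -0.24 to 0.39 on leaving out 1 library. The median difference between models was -0.40, -0.28 and -0.35 to 0.30 under the same choices. Between the shams it was 0.45 by limma-voom, 0.58 without KI sham 3 and 4, and -0.18 to 0.44 on leaving out 1 library. For the KA comparison it ran from -0.02 to 0.18 on leaving out 1 library. The cause of these shifts was not tested.

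Replicate numbers did not pair the libraries: 7 same-numbered pairs within models had correlations of -0.17 to 0.01, and 0 of 7 correlated best with their own number. With the replicate block, 0 members were called in kindling (Col9a3 -0.75, edgeR adjusted p = 0.13; Postn -1.39, edgeR adjusted p = 0.17), where 0 of all genes were. A block cannot be had for the comparisons of shams or of seizure groups between models. Low counts limit Postn, Col26a1, Col9a1, Col17a1 and Col6a4.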

Other observations

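KA 3 Class V 3, the library with the highest Lox, also had the highest P4ha3 and Loxl2 of its group. It was the highest of its group for 21 of the 47 members and for 40.3% of all genes, so such an order is common. P4ha3, a collagen prolyl hydroxylase subunit, was at 2.76, 1.22 and 6.59 CPM. Loxl2, a lysyl oxidase relative, was at 1.25, 2.02 and 3.56 CPM. Tgfb1 did not share this order, at 38.3, 60.9 and 48.7 CPM. The genes were chosen after their values were seen.

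KI 3 Class V 2 was the highest of its group for 30 of the 47 members, against 26.1% of all genes, and its pericyte and smooth muscle marker sum was also the highest of the group, at 256 CPM.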
